A study of Mus musculus with 15 samples.

Results

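Guidance genes of the semaphorin, Slit, netrin and ephrin families, with their receptors, were followed through sorted cells of the mouse pancreas. The list held 57 gene names of these families. A probe set that names 1 gene was found for 56 of them, among 19938 genes measured so, and Ephb2 was not analysed here. Of the 56, 55 passed the filter on low signal, as did 16883 genes in all. Efna3, an ephrin-A ligand, was the member under the filter, with levels between 6.09 and 6.81 in the 15 arrays.

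The study used 5 groups of 3 arrays. The mice came from Sox9-EGFP or Ngn3-EGFP males mated with CD1 females, CD1 being the background strain in the labels. Pancreata were dissociated and the cells with a high GFP signal were sorted. Sox9-GFP+ cells were taken from Sox9-EGFP pancreas at the embryonic days e10.5 and e15.5 and at postnatal day 23 (p23). Ngn3-GFP+ cells came from Ngn3-EGFP pancreas at e15.5, and GFP- cells from the Sox9-EGFP pancreas at p23. Sox9 marks the progenitor cells of the embryonic pancreas and later the ducts, and Neurog3, the gene behind the name Ngn3, switches on endocrine differentiation. Animals were pooled for each sort, so the p-values here measure how far such pools spread, not how far animals do. No gate against blood or endothelial cells is named, and the GFP- cells are all cells outside the reporter.

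These families were first known for steering growing axons. Semaphorins bind plexins, in part with neuropilins as co-receptors, Slits bind Robo receptors, and netrins bind Dcc, neogenin and Unc5 receptors. Ephrins are anchored in the membrane and bind Eph receptor tyrosine kinases on the neighbouring cell. In epithelia, vessels and immune cells the same proteins act on adhesion, cell shape and movement, and in the pancreas Slit and Robo genes are known from studies of organ development and of islet cells.

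All levels below are log2(intensity + 16), and all changes are differences on that scale with the standard error (SE) from a limma fit over all 15 arrays. Such a change understates that of a dim gene. A gene was called when its Benjamini-Hochberg adjusted p over the 16883 genes was under 0.05. Levels are compared between groups for 1 gene and never between genes, since probe sets differ in brightness. The number of arrays limits the precision of every change.

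The sorts were checked on their own genes and on markers of other cells. Sox9 was 2.37 ± 0.32 (SE, adjusted p = 3.45e-05) higher in Sox9-GFP+ than in GFP- cells at p23, and 1.29 lower in Ngn3-GFP+ than in Sox9-GFP+ cells at e15.5 (log2 change -1.29 ± 0.32, adjusted p = 0.00803). Neurog3 did not separate the e15.5 sorts, with levels of 11.53 to 12.21 in Ngn3-GFP+ and 11.66 to 12.12 in Sox9-GFP+ arrays. The leukocyte gene Ptprc stood at 14.28 to 14.64 in GFP- cells and at 8.12, 10.64 and 10.09 in Sox9-GFP+ cells at p23, against at most 7.19 in any embryonic array. The embryonic globin Hbb-y stood at 10.48 and 11.20 in e10.5 replicates 1 and 2 and at 9.98 in e15.5 replicate 1, all Sox9-GFP+, and at 6.35 or less in the others. The globins Hba-x and Hbb-bh1 were also lower in e10.5 replicate 3 (7.06 and 5.88) than in replicates 1 and 2. The other measured erythroid genes, Alas2, Gata1, Klf1 and Slc4a1, read highest of the e10.5 arrays in replicate 3, Alas2 at 7.35, 8.12 and 8.89. The arrays with high Hbb-y are thus not the highest in every erythroid gene. Arrays within a group correlated at 0.935 to 0.962 in the Ngn3-GFP+ cells and at 0.969 to 0.993 in the other groups.

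**Figure D1:**
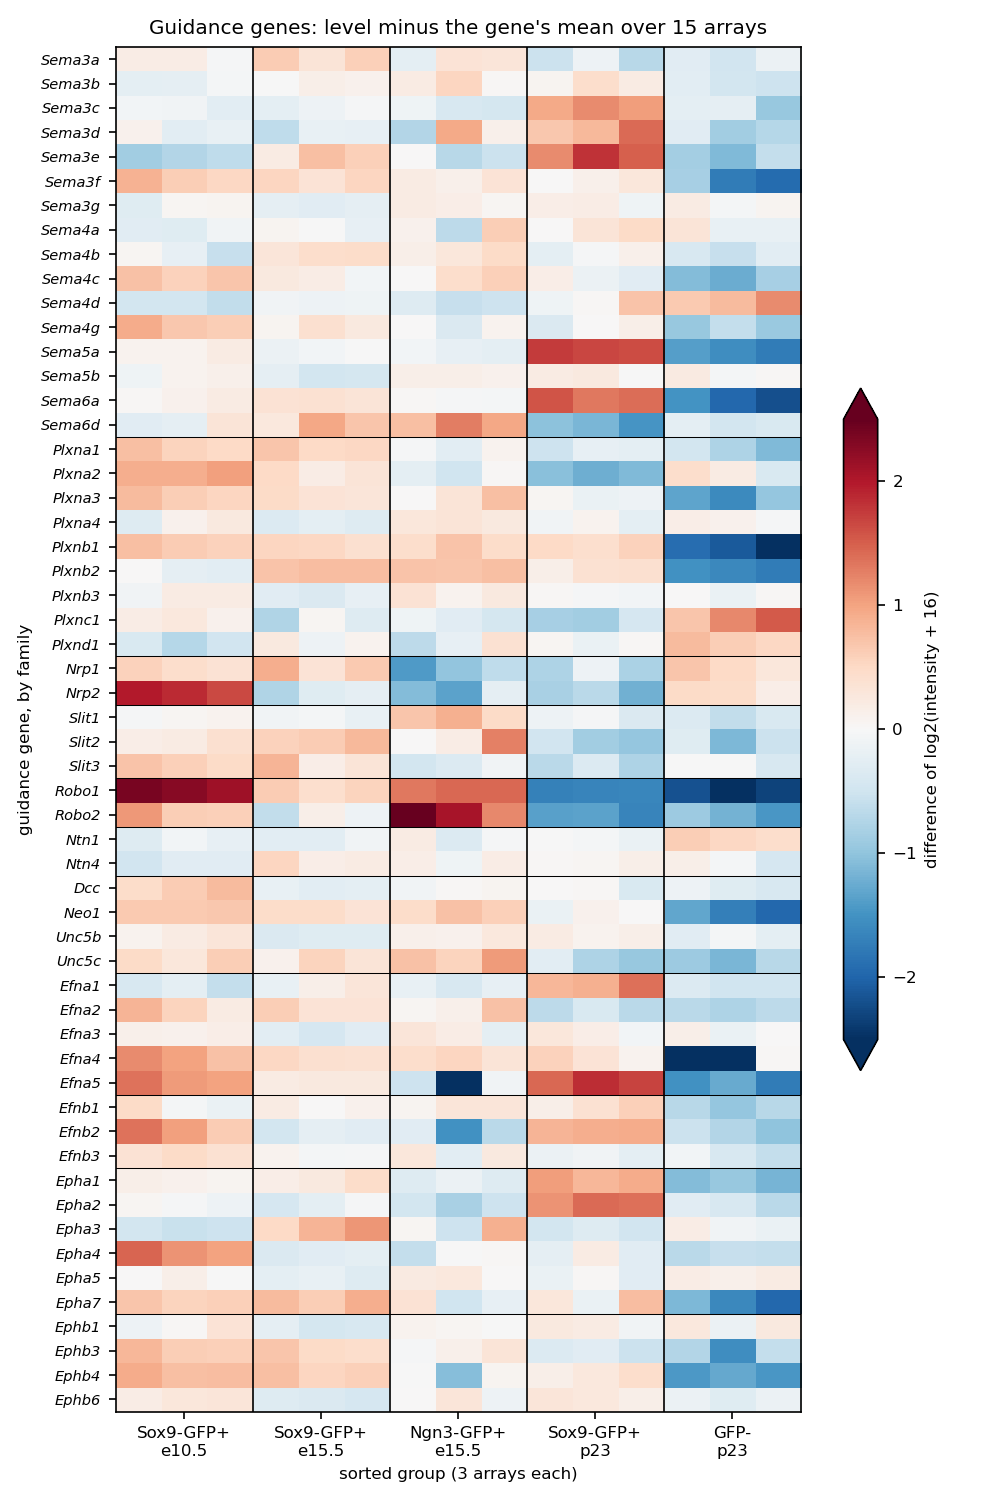
Level of each of the 56 guidance genes (rows, by family) in each array (columns, 5 groups of 3), as the difference of log2(intensity + 16) from that gene's mean over the 15 arrays. Robo1 and Robo2 are above their means in the embryonic sorts, apart from Robo2 in 2 of the Sox9-GFP+ e15.5 arrays, and below them at p23, while Sema5a and Sema6a are above theirs in Sox9-GFP+ cells at p23 and below them in GFP- cells.

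From e10.5 to e15.5 the Sox9-GFP+ cells lost signal for Nrp2, Robo1, Epha4 and Efnb2 and gained it for Epha3, Sema3e and Plxnb2. In this comparison 22 of the 55 members were called, 8 higher and 14 lower, where 28.2% of all genes were called, 12.2% higher and 16% lower. The members' median change was -0.19 and that of all genes was -0.05. The groups did not overlap for 37 members, against 57.3% of all genes. The direction of the smaller changes depended on the scaling of the arrays: after median centring 10 members were higher and 7 lower, and after quantile normalization 8 and 7. With centring the all-gene median went from -0.05 to 0.11. Dim genes, the 5098 with a mean under the table's median intensity of 187.5, had a median change of -0.32, with 8.39% of their calls higher. Of the 19 members as dim, 2 were called higher and 7 lower. Leaving out single arrays ended 11 of the 22 calls (Sema4b, Sema4c, Sema4g, Sema5b, Sema6d, Plxna2, Plxnb3, Plxnd1, Robo2, Efna1 and Ephb1), at adjusted p from 0.0504 to 0.186. Of these calls 10 were lost without any of e10.5 replicates 2 and 3 and e15.5 replicates 2 and 3, 5 without e10.5 replicate 1 and 4 without e15.5 replicate 1. Without the 3 arrays with Hbb-y above 9 the count was 13. That fit leaves 1 array at e10.5, and leaving out single arrays alone gave counts of 12 to 18. The part of the blood signal in the result was not tested.

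From e15.5 to p23 the same sort lost Robo1, Sema6d, Plxna2 and Slit2 and gained Sema5a, Epha2, Sema3d and Efnb2. In all 31 members were called, 14 higher and 17 lower, where 57.5% of all genes were, 30.7% higher and 26.8% lower. The median change was -0.09 for the members and 0.05 for all genes, and 37 members did not overlap, against 72.7% of genes. The share of members called was thus near that of all genes. The 5098 dim genes had a median change of 0.37, with 87.5% of their calls higher. Of the 19 dim members, 6 were called higher and 4 lower. Leaving out single arrays ended the calls of Sema3g, Sema4b, Plxna3, Neo1 and Ephb1, at adjusted p from 0.0507 to 0.133. The losses came to 5 each without e15.5 replicate 2 or p23 replicate 1, 3 each without e15.5 replicate 1, e15.5 replicate 3 or p23 replicate 2, and 1 without p23 replicate 3.

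Over the whole span from e10.5 to p23, 33 members were called, 12 higher and 21 lower, where 41% of genes were, 17.7% higher and 23.3% lower. The medians were -0.16 for members and -0.01 for all genes, and the groups did not overlap for 39 members, against 50.9% of genes. The 3 comparisons of Sox9-GFP+ cells share arrays, so each is given with its own values. The summed signal of the leukocyte list (15 genes measured) was 1628 to 2094 at e10.5, 1699 to 1855 at e15.5 and 2797 to 5576 at p23. That of the neural list (12 genes measured) was 12622 to 14400, 7451 to 8672 and 1782 to 1864. Such a sum is weighted by bright genes, and Nefl of the neural list went from a mean of 13.11 at e10.5 to 11.01 at e15.5. The mean level of the neural list was 8.45 to 8.52, 8.50 to 8.68 and 6.65 to 6.82. From e10.5 to e15.5 1 of its genes was called higher and 2 lower. The acinar list (11 genes measured) went from 1392 to 2076 at e10.5 through 18734 to 28932 at e15.5 to 80573 to 91175 at p23. The endocrine list (14 genes measured) read 30731 to 35887, 42870 to 56927 and 5030 to 9199, with 13 of 14 genes called lower from e15.5 to p23. The ductal list (12 genes measured) read 14392 to 17523, 19159 to 21910 and 33382 to 37884. The part of these cells in the stage differences was not tested, and fewer cells of a type cannot be told apart from less RNA per cell. Without the 2 p23 arrays with Ptprc above 10, 23 members were called, and without the arrays with Hbb-y above 9, 20. Either fit leaves a group with 1 array, which is taken to vary like the other groups. Leaving out single arrays ended the calls of Sema3a, Sema3b, Sema3d and Ntn4, at adjusted p from 0.053 to 0.141, with 2 to 4 of them lost without each of the arrays except e10.5 replicate 3.

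**Figure D2:**
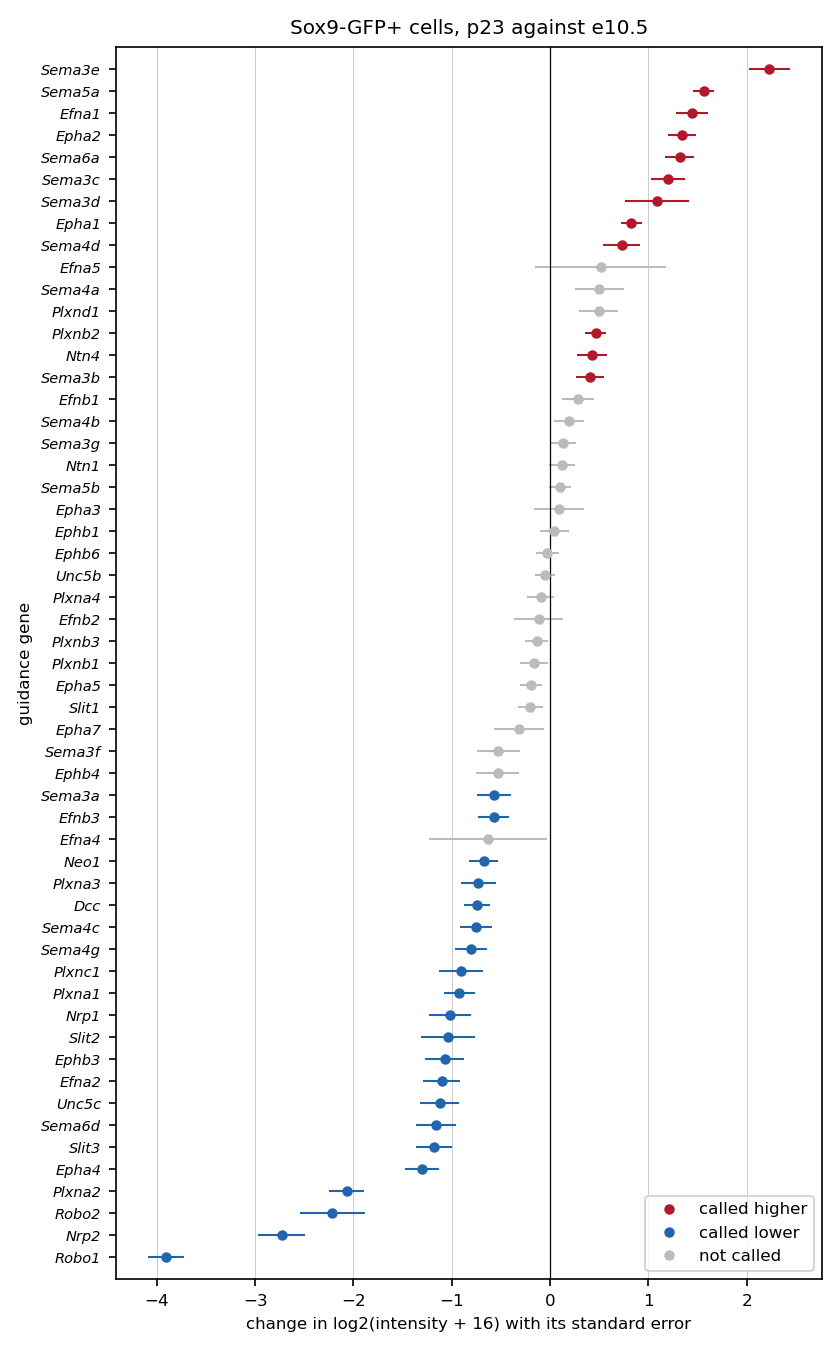
Change of the 55 tested guidance genes from e10.5 to p23 in the Sox9-GFP+ sort (x axis, log2(intensity + 16), bars are SE), ordered by size and coloured by call. Robo1 fell by 3.91 and Nrp2 fell by 2.73, and Sema3e, at the other end, rose by 2.23.

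At e15.5 the Ngn3-GFP+ cells had more Robo2, Robo1 and Slit1 than the Sox9-GFP+ cells and less Nrp1, Sema3e, Slit3 and Ephb4. In this comparison 21 members were called, 11 higher and 10 lower, where 41.7% of all genes were called, 23.3% higher and 18.4% lower. The medians were -0.03 for members and 0.04 for all genes, and 27 members did not overlap, against 56.2% of genes. The summed signal of the endocrine list (14 genes measured) was 75312 to 80336 in Ngn3-GFP+ and 42870 to 56927 in Sox9-GFP+ cells, with 5 genes called higher and 0 lower. Of the acinar list 5 of 11 genes were called lower in Ngn3-GFP+ cells (14630 to 20849 against 18734 to 28932), and of the ductal list 4 of 12 (13245 to 18463 against 19159 to 21910). The part of these cells in the difference was not tested. Most of the higher calls were small and lay in dim genes, 9 of the 11 having a mean under the table's median intensity of 187.5. Of all 5098 genes as dim, the median change was 0.36 and 91.8% of the calls were higher. After quantile normalization 4 members were higher and 10 lower, and after median centring 7 and 17, with an all-gene median of -0.14 under centring. Leaving out single arrays ended the calls of Sema3g, Plxna2, Efna5, Epha3, Epha5, Epha7, Ephb1 and Ephb6, at adjusted p from 0.0508 to 0.205. Of these, 8 were lost without Sox9-GFP+ replicate 3, 5 without Ngn3-GFP+ replicate 2, 4 without Sox9-GFP+ replicate 2, 3 each without Sox9-GFP+ or Ngn3-GFP+ replicate 1 and 1 without Ngn3-GFP+ replicate 3.

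**Figure D3:**
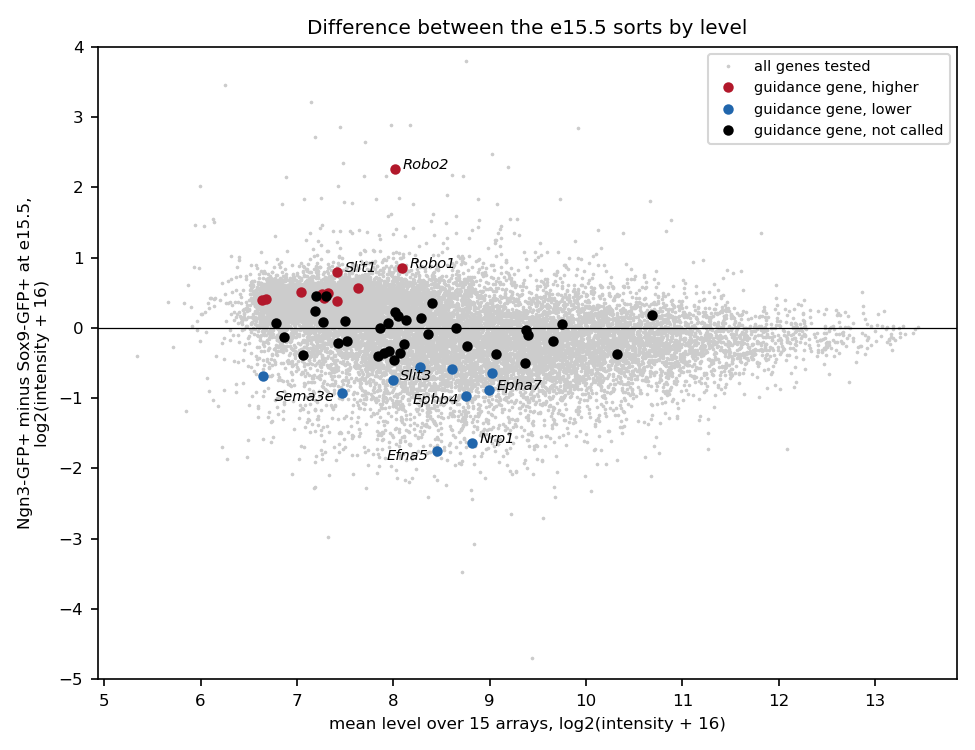
Difference between Ngn3-GFP+ and Sox9-GFP+ cells at e15.5 (y axis) against the mean level over the 15 arrays (x axis), both on log2(intensity + 16), with all 16883 tested genes in grey and the guidance genes in colour by call. Dim genes on the left lie mostly above 0, and Robo2, at 2.26, stands above the other guidance genes.

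At p23 the guidance genes separated the sorts most often by being higher in Sox9-GFP+ than in GFP- cells. Here 37 members were called, 28 higher and 9 lower, where 36% of all genes were, 21.5% higher and 14.5% lower. The medians were 0.37 for members and 0.07 for all genes, and the groups did not overlap for 37 members against 47.3% of genes. At least 2-fold higher were 19 of the 55 members and 1534 of the 16883 genes. After median centring 24 members were higher and 10 lower, and after quantile normalization 24 and 10. Sema6a, Sema5a, Efna5, Plxnb1 and Efna4 led on the Sox9-GFP+ side and Plxnc1, Nrp2, Plxna2 and Nrp1 on the GFP- side. The mean level of the leukocyte list was 10.71 to 11.12 in GFP- and 7.46 to 8.16 in Sox9-GFP+ cells, with 13 of 15 genes called lower in the latter. That of the endothelial list was 8.04 to 8.32 and 7.21 to 7.49, with 7 of 14 called lower, and that of the acinar list 12.45 to 12.71 and 11.75 to 11.97, with 4 of 11 called lower. The ductal list stood at 8.51 to 8.91 in GFP- and 11.25 to 11.35 in Sox9-GFP+ cells, with 10 of 12 called higher. The part of this cell mixture in the difference was not tested. Leaving out single arrays ended the calls of Sema4d, Plxna1, Plxnd1, Unc5b, Epha4, Epha5 and Ephb3, at adjusted p from 0.0505 to 0.177, with 2 to 5 lost without each of the 6 arrays. With Sox9-GFP+ replicate 1 as the only array of its group, 25 members were called, in a fit that takes the spread from the other groups and has fewer arrays.

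**Figure D4:**
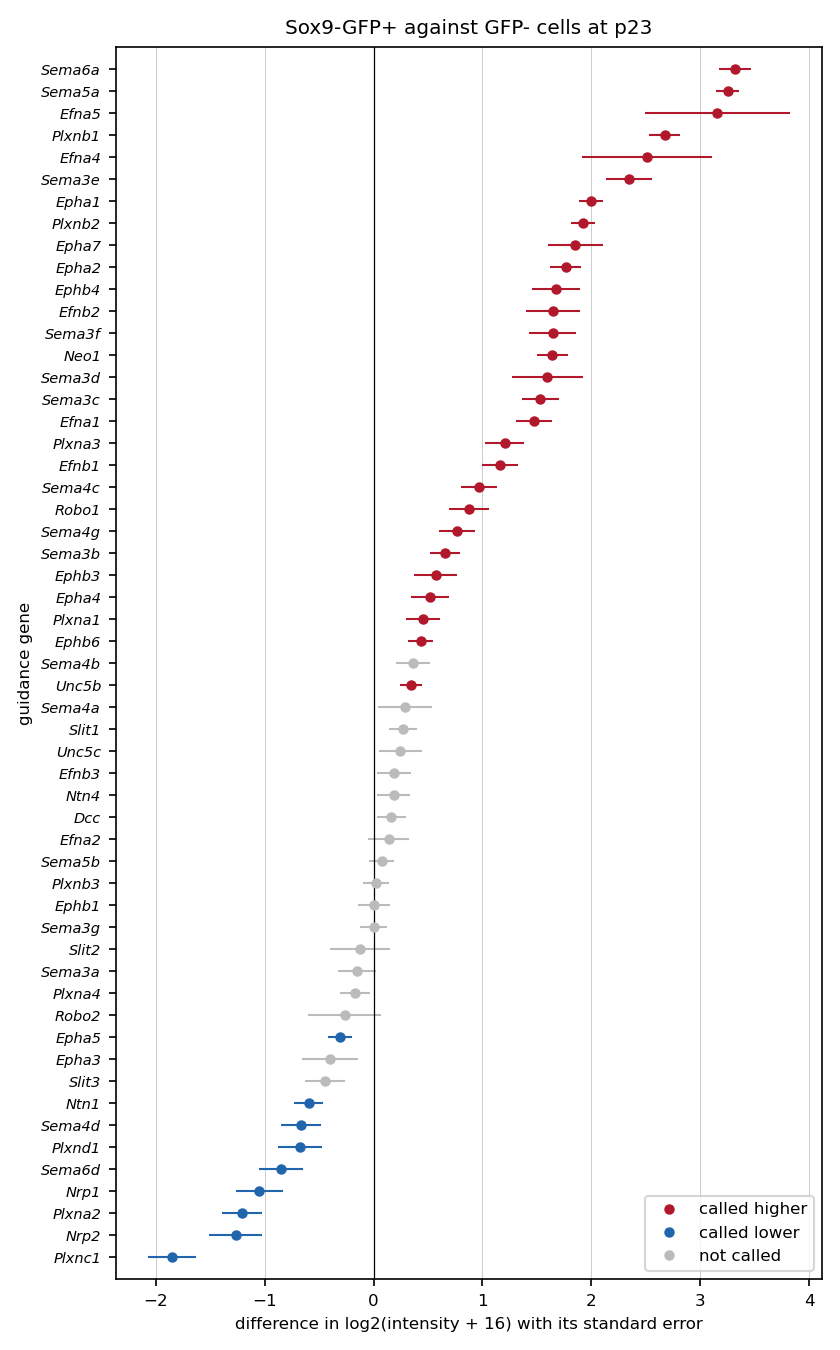
Difference of the 55 tested guidance genes between Sox9-GFP+ and GFP- cells at p23 (x axis, log2(intensity + 16), bars are SE), ordered by size and coloured by call. The points reach from 3.32 for Sema6a to -1.85 for Plxnc1, and 28 of the 37 called genes are on the Sox9-GFP+ side.

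Among the semaphorins, the largest ligand family on the list, 16 were tested. In Sox9-GFP+ cells 6 were called from e10.5 to e15.5 (3 higher, 3 lower), 10 from e15.5 to p23 (7 higher, 3 lower) and 11 over the whole span (7 higher, 4 lower). These are 37.5%, 62.5% and 68.8% of the family, where 28.2%, 57.5% and 41% of all genes were called. Between the e15.5 sorts 3 were called, and between the p23 sorts 11 (9 higher and 2 lower in Sox9-GFP+ cells). These are 18.8% and 68.8%, where 41.7% and 36% of all genes were called.

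Sema5a and Sema6a, membrane semaphorins, read highest in the Sox9-GFP+ cells of p23. In Sox9-GFP+ cells Sema5a read 9.48, 9.48 and 9.60 at e10.5, 9.26, 9.33 and 9.39 at e15.5 and 11.15, 11.07 and 11.03 at p23. It read 9.32, 9.19 and 9.15 in Ngn3-GFP+ and 8.02, 7.84 and 7.65 in GFP- cells. The embryonic arrays thus lay within a narrow band, with every p23 Sox9-GFP+ array above it and every GFP- array below it. Sema5a rose by 1.76 ± 0.11 from e15.5 to p23 (adjusted p = 2.36e-08), and at p23 it was 3.25 ± 0.11 higher, or 9.52-fold, in Sox9-GFP+ than in GFP- cells (adjusted p = 3.29e-11). Sema6a followed with 10.35, 10.42 and 10.53 at e10.5, 10.69, 10.71 and 10.65 at e15.5, 11.90, 11.63 and 11.72 at p23 and 8.82, 8.35 and 8.13 in GFP- cells. It rose by 1.07 ± 0.15 from e15.5 to p23 (adjusted p = 5.22e-05) and was 3.32 ± 0.15 higher than in GFP- cells (adjusted p = 3.96e-10). In Ngn3-GFP+ cells Sema6a read 10.35, 10.29 and 10.27, under every Sox9-GFP+ array of e15.5, but the change of -0.38 ± 0.15 was not called (adjusted p = 0.0511).

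Sema3e, a secreted ligand of Plxnd1, climbed at both steps. It read 6.61, 6.74 and 6.84 at e10.5, 7.68, 8.22 and 8.06 at e15.5 and 8.65, 9.27 and 8.96 at p23 in Sox9-GFP+ cells. The ranges of the 3 stages did not overlap, and the changes were 1.25 ± 0.21 (adjusted p = 0.00101) and 0.98 ± 0.21 (adjusted p = 0.00175). The second was 0.67 with an adjusted p of 0.0741 when p23 was the array with the least Ptprc alone. The Ngn3-GFP+ arrays read 7.49, 6.77 and 6.93, lower than all Sox9-GFP+ arrays of that stage (-0.92 ± 0.21, adjusted p = 0.00595), and the GFP- arrays 6.62, 6.36 and 6.87 (difference 2.34 ± 0.21, adjusted p = 6.5e-07). Other secreted class 3 semaphorins were higher at p23 as well. Sema3c, which signals through neuropilins, rose by 1.19 ± 0.17 from e15.5 to p23 (adjusted p = 8.57e-05) and stood 1.53 ± 0.17 above GFP- cells (adjusted p = 5.85e-06). Sema3d read 6.56 to 7.02 at e15.5 and 7.88, 8.02 and 8.62 at p23, a rise of 1.31 ± 0.33 (adjusted p = 0.00429), and was 1.60 ± 0.33 higher than in GFP- cells. Neither was called with the p23 array of least Ptprc alone (1.02 and 1.30, adjusted p = 0.0902 and 0.0609). Its Ngn3-GFP+ arrays spread from 6.46 to 8.14, so that its change there (0.45 ± 0.33) could not be resolved. Sema3f did not pass the test at any stage step and was 1.64 ± 0.22 higher than in GFP- cells (adjusted p = 2.92e-05), and Sema3b was 0.65 ± 0.14 higher there, or 0.49 (adjusted p = 0.0852) with the Sox9-GFP+ array of least Ptprc alone.

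Sema6d and Sema3a took the other course. Sema6d, a transmembrane ligand of Plxna1, read 8.12, 8.18 and 8.72 at e10.5, 8.66, 9.36 and 9.10 at e15.5 and 7.37, 7.26 and 6.92 at p23. Its rise of 0.70 ± 0.20 to e15.5 (adjusted p = 0.0231) rested on overlapping arrays, and its fall of 1.86 to p23 (log2 change -1.86 ± 0.20, adjusted p = 7.02e-06) did not. At p23 it was lower in Sox9-GFP+ than in GFP- cells (-0.85 ± 0.20, adjusted p = 0.004), and it was -0.67 (adjusted p = 0.117) with the Sox9-GFP+ array of least Ptprc alone. Sema3a, the classic repellent of sensory axons, fell by 0.97 from e15.5 to p23 (adjusted p = 0.00055). Of the class 4 semaphorins, Sema4c and Sema4g fell from e10.5 to p23 (-0.75 ± 0.17 and -0.80 ± 0.17) and were higher in Sox9-GFP+ than in GFP- cells at p23 (0.97 ± 0.17 and 0.76 ± 0.17). With the p23 Sox9-GFP+ array of least Ptprc alone, the fall of Sema4c was -0.50 (adjusted p = 0.123) and the p23 difference of Sema4g 0.48 (adjusted p = 0.142). Without the Hbb-y arrays neither fall was called (-0.78 and -0.68, adjusted p = 0.0562 and 0.0735). Sema4b rose to e15.5 (0.64 ± 0.16) and fell again (-0.45 ± 0.16). Sema4d, which immune cells also carry, read 9.71, 9.86 and 10.25 in GFP- against 8.96, 9.10 and 9.77 in Sox9-GFP+ cells (-0.66 ± 0.18, adjusted p = 0.011). The array with 9.77 overlapped the GFP- range. A second probe set of Sema4d gave 8.42 in both groups, so the difference belongs to 1 of its 2 probe sets, and so does its rise of 0.73 ± 0.18 from e10.5 to p23 (8.45 to 8.42 in the second probe set). Sema3g and Sema5b differed by 0.52 or less in every comparison that called them, and Sema4a was called in none.

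**Figure D5:**
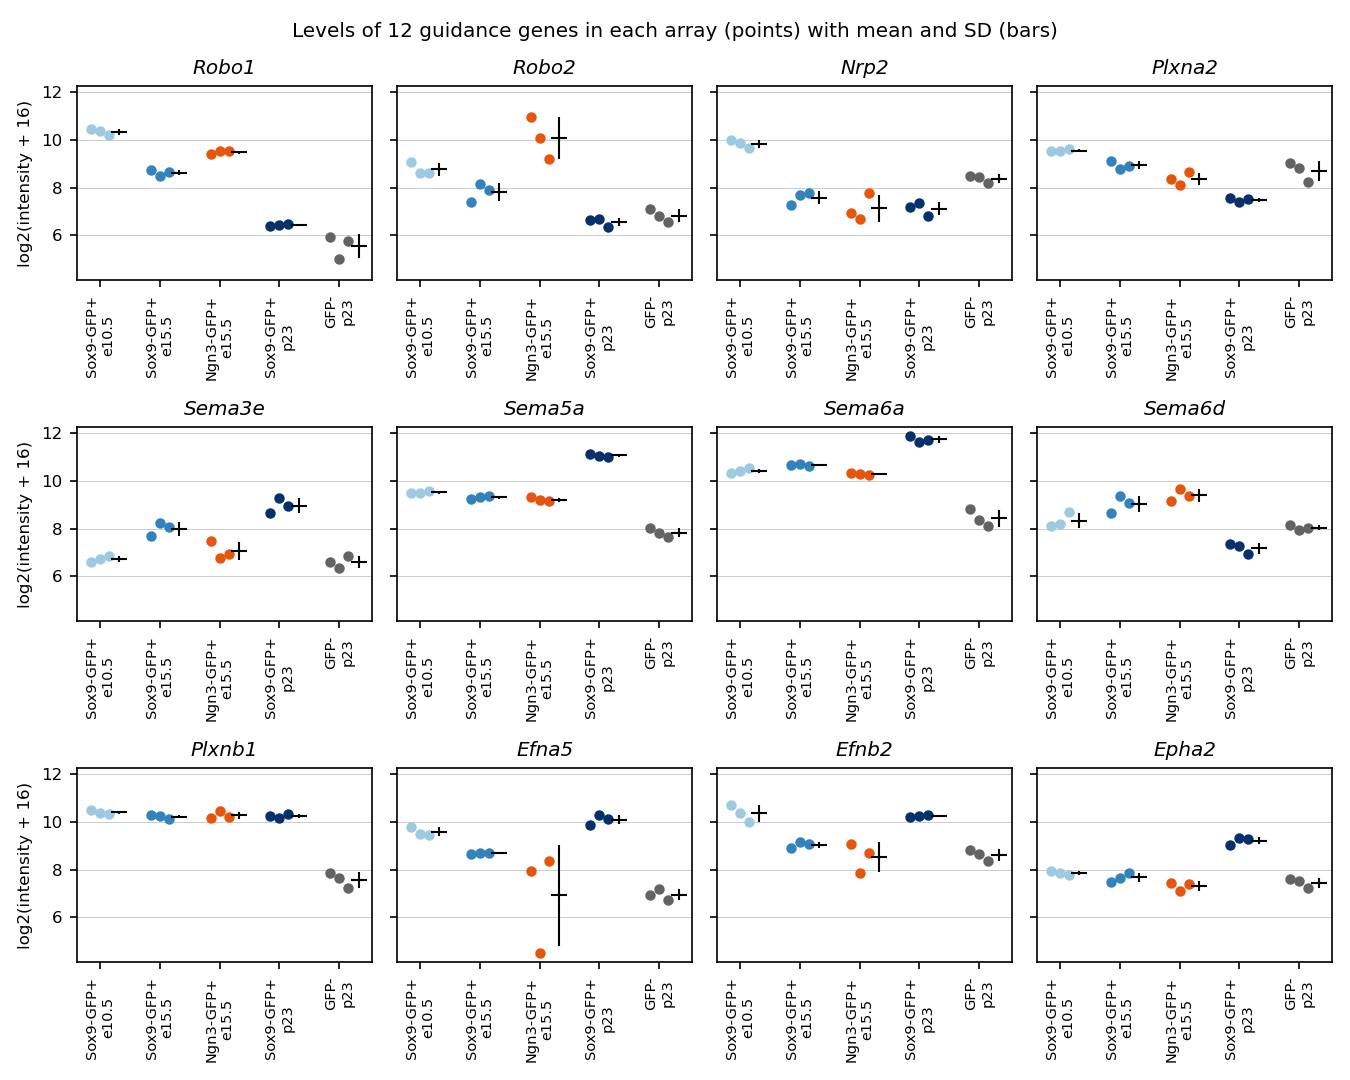
Levels of chosen guidance genes, log2(intensity + 16), in each of the 15 arrays (points, 5 groups of 3) with the group's mean and SD (black bars). Robo1 steps down from a mean of 10.34 to 6.44 across the Sox9-GFP+ stages, Plxnb1 is low in the GFP- arrays alone, and 1 Ngn3-GFP+ array has Efna5 at 4.49.

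Plexins and neuropilins, the receptors of the semaphorins, counted 11 tested members. From e15.5 to p23 5 of them fell and 0 rose, and over the whole span 6 fell and 1 rose. The shares called were 45.5% and 63.6%, against 57.5% and 41% of all genes. Of all genes 26.8% and 23.3% were called lower. Nrp2, a co-receptor for class 3 semaphorins and some VEGFs, made the largest step of the early interval. It read 9.85 ± 0.17 (SD, n = 3) at e10.5 and 7.26, 7.71 and 7.78 at e15.5, a 4.81-fold fall (-2.27 ± 0.24, adjusted p = 2.24e-05), and 7.21, 7.34 and 6.81 at p23. The e10.5 arrays lay far above all the later ones, which overlapped. GFP- cells had more Nrp2, at 8.38 ± 0.17 (SD, n = 3), with a difference at p23 of -1.27 ± 0.24 (adjusted p = 0.000793). Nrp1, its relative, kept its level to e15.5 (9.38, 9.25 and 9.18, then 9.72, 9.15 and 9.46) and then read 8.04, 8.68 and 8.03 at p23, a fall of 1.19 (adjusted p = 0.000527). The Ngn3-GFP+ arrays, at 7.40, 7.83 and 8.17, were all below the Sox9-GFP+ arrays (-1.64 ± 0.22, adjusted p = 0.000308). GFP- cells had 9.50, 9.31 and 9.09, above the Sox9-GFP+ cells of p23 (-1.05 ± 0.22, adjusted p = 0.0014). Endothelial cells express both neuropilins, and the endothelial gene Pecam1 read 10.38 to 10.80 in GFP- and 7.38 to 8.32 in Sox9-GFP+ cells at p23, whose part in these differences was not tested.

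Plxna2, a receptor for class 3 and class 6 semaphorins, fell at each step, from 9.52, 9.53 and 9.63 at e10.5 through 9.11, 8.80 and 8.93 at e15.5 to 7.57, 7.39 and 7.51 at p23. The second step was the larger (-0.61 ± 0.18 and -1.45 ± 0.18, adjusted p = 0.0251 and 2.57e-05), and their difference was not tested. The first fall was not called under median centring (-0.45, adjusted p = 0.0976) and lost its call under 6 of 18 alternatives, single arrays left out among them. It was -0.76 without the Hbb-y arrays. In Ngn3-GFP+ cells it read 8.36, 8.11 and 8.64 and in GFP- cells 9.05, 8.81 and 8.23, the latter above the Sox9-GFP+ cells of p23 (-1.21 ± 0.18, adjusted p = 0.000104). Plxna1 fell from e15.5 to p23 (-0.90 ± 0.16, adjusted p = 0.000425) and was lower in Ngn3-GFP+ cells (-0.64 ± 0.16), and Plxna3 fell by 0.73 over the whole span. Plxna4 was called higher in Ngn3-GFP+ cells, at 7.91, 7.95 and 7.88 against 7.30, 7.40 and 7.32 in Sox9-GFP+ cells of e15.5. That call was kept in 18 of 18 alternatives and was its only one among the pairwise comparisons.

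Of the B plexins, which bind class 4 and class 5 semaphorins, Plxnb1 and Plxnb2 were higher in Sox9-GFP+ than in GFP- cells at p23, and Plxnb3 was not called (0.02 ± 0.12, adjusted p = 0.909). Plxnb1 read between 10.14 and 10.49 in all 12 GFP+ arrays, with no call between any of those groups, and 7.85, 7.64 and 7.22 in GFP- cells. The difference at p23 was 2.67 ± 0.14, or 6.37-fold (adjusted p = 2.9e-09). Plxnb2 rose from 9.39, 9.15 and 9.12 at e10.5 to 10.08, 10.14 and 10.15 at e15.5 (0.90 ± 0.11, adjusted p = 7.01e-05) and came back to 9.52, 9.75 and 9.78 at p23 (-0.44 ± 0.11). It too was low in GFP- cells, at 7.87, 7.77 and 7.63 (difference 1.93 ± 0.11, adjusted p = 5.54e-09). Plxnc1, the receptor of Sema7a and a plexin of immune cells, went the other way at p23, with 5.94, 5.90 and 6.35 in Sox9-GFP+ and 7.47, 7.97 and 8.32 in GFP- cells (-1.85 ± 0.22, adjusted p = 1.06e-05). Plxnd1, known from endothelium, was lower there too (-0.67 ± 0.20, adjusted p = 0.0173). Between these p23 sorts both differed in the same direction as the leukocyte and endothelial markers given above. Across the Sox9-GFP+ stages Plxnc1 fell from a mean of 6.97 at e10.5 to 6.07 at p23. In that comparison 8 leukocyte and 7 endothelial genes were called higher and 0 lower. Plxnd1 rose by 0.59 from e10.5 to e15.5, a call lost under 9 of 18 alternatives. At that step 0 endothelial genes were called higher and 3 lower, and dim genes as a whole had a median change of -0.32. The part of these cells in either gene's differences was not tested.

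Slits and Robos include Robo1, the member with the largest change between stages. Of the 5 tested, 4 fell from e15.5 to p23 and 0 rose, where 57.5% of all genes were called, 26.8% lower. The median change of the 5 was -1.25 where that of all genes was 0.05. The bases before the start sites of Robo1 and Robo2 are shown because these receptors moved together, and those of Sema5a and Epha2 because they rose most from e15.5 to p23. They are the 250 bases before the start in RefSeq, build GRCm38.p6, at chr16:72662899-72663148 (plus strand, Robo1), chr16:75447294-75447543 (minus strand, the first of 3 Robo2 starts), chr15:32244563-32244812 (plus strand, Sema5a) and chr4:141300971-141301220 (plus strand, Epha2). Capitals mark matches to the motifs named after the sequences, on either strand.
Robo1: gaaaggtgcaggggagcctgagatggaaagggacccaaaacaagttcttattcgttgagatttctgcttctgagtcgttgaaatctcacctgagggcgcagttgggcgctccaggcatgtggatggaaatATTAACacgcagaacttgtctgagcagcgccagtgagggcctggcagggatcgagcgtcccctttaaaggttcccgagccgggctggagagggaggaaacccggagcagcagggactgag
Robo2: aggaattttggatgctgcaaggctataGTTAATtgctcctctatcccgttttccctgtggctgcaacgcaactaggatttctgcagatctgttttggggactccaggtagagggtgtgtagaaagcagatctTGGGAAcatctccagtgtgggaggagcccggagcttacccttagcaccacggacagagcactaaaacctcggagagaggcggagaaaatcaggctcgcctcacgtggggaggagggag
Sema5a: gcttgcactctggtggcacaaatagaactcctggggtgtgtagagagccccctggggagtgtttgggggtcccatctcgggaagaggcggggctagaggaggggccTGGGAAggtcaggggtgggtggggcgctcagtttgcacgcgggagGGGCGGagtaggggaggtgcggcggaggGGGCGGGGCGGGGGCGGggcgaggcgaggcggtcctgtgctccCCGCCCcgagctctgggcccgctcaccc
Epha2: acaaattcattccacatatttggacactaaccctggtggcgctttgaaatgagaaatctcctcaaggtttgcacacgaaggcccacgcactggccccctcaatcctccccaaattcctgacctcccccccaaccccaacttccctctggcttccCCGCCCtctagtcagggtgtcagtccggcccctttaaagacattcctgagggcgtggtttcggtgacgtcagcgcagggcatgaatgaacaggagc

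The motifs were chosen after the values were seen, and a match is a description and not a site of binding. The HNF1 core GTTAAT was in the windows of Robo1 and Robo2, in 2 of the members' 61 windows (3.28%) and in 6.43% of all 32851. The GC box, spelled GGGCGG and allowed to overlap itself, was in 72.1% of the members' windows and 32.7% of all, with 5 matches before Sema5a and 1 before Epha2. The RBPJ core TGGGAA was in 18% and 21.6%, and the SOX core ACAAT in 18% and 27.7%. In all, 47 of the 56 members had a window in the table, and the other starts of Robo2 held none of these words.

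Robo1, a Slit receptor, read 10.46, 10.36 and 10.20 at e10.5, 8.73, 8.51 and 8.64 at e15.5 and 6.44 ± 0.03 (SD, n = 3) at p23. The stages were far apart for their spread, with changes of -1.71 ± 0.18 (adjusted p = 2.32e-05) and -2.19 ± 0.18 (adjusted p = 5.59e-07), and of -3.91 ± 0.18 or 15-fold in all (adjusted p = 1.21e-09). In Ngn3-GFP+ cells it read 9.40, 9.52 and 9.53, above each Sox9-GFP+ array of that stage (0.85 ± 0.18, adjusted p = 0.00457). GFP- cells read 5.91, 4.99 and 5.78, below the Sox9-GFP+ cells of p23 (difference 0.88 ± 0.18, adjusted p = 0.00162). That last difference lies near the lower end of the scale, and with an offset of 64 in place of 16 it was 0.49.

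Robo2, the second Slit receptor, was the member with the largest difference between the e15.5 sorts. The Ngn3-GFP+ arrays read 10.95, 10.08 and 9.21 and the Sox9-GFP+ arrays 7.39, 8.17 and 7.89, a 4.8-fold difference (2.26 ± 0.33, adjusted p = 0.000606). All 3 were also above the e10.5 arrays, at 9.10, 8.62 and 8.61, and those of p23, at 6.66, 6.68 and 6.36. From e15.5 to p23 Robo2 fell by 1.25 (adjusted p = 0.00626) and, with the p23 array of least Ptprc alone, by about as much (log2 change -1.16, adjusted p = 0.0765), and from e10.5 to p23 by 2.21 (adjusted p = 9.26e-05). Its earlier fall of 0.96 ± 0.33 passed the threshold narrowly (adjusted p = 0.0448). It was -0.58 (adjusted p = 0.438) without the Hbb-y arrays, and about as large but not called under median centring (-0.80, adjusted p = 0.102) and quantile normalization (-0.85, adjusted p = 0.099). At p23 the sorts overlapped, with 7.10, 6.83 and 6.56 in GFP- cells.

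The Slit ligands differed among themselves. Slit1 was higher in Ngn3-GFP+ cells, at 8.11, 8.31 and 7.89 against 7.33, 7.37 and 7.23 in Sox9-GFP+ cells (0.79 ± 0.13, adjusted p = 0.000944), and was called in no other pairwise comparison. Slit3 was lower in Ngn3-GFP+ cells, at 7.53, 7.66 and 7.90 against 8.84, 8.15 and 8.32 (-0.74 ± 0.18, adjusted p = 0.00806). In Sox9-GFP+ cells Slit3 then fell to 7.31, 7.66 and 7.23 at p23 (-1.03 ± 0.18, adjusted p = 0.000428). Slit2 fell by 1.44 from 8.10, 8.14 and 8.32 at e15.5 to 7.03, 6.65 and 6.55 at p23 (adjusted p = 0.000805). Its Ngn3-GFP+ arrays spread from 7.53 to 8.78 around the Sox9-GFP+ range, with no call.

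Netrins and their receptors numbered 6 tested members. Neo1, the neogenin receptor, read 11.34, 11.34 and 11.37 at e10.5, 11.14, 11.14 and 11.02 at e15.5, 11.15, 11.42 and 11.29 in Ngn3-GFP+ cells and 10.52, 10.80 and 10.69 at p23. It fell by 0.68 from e10.5 to p23 (adjusted p = 0.0018), and GFP- cells stood well below every other array, at 9.39, 8.97 and 8.73 (difference 1.64 ± 0.15, adjusted p = 5.66e-07). Dcc, the attractant receptor for netrin-1, fell early, from 7.64, 7.83 and 7.97 at e10.5 to 6.96 ± 0.04 (SD, n = 3) at e15.5 (-0.86 ± 0.13, adjusted p = 0.000434). The dim genes, Dcc among them, had a median change of -0.32 at this step. No comparison of Dcc among the later groups was called, although its Ngn3-GFP+ arrays, at 7.10, 7.22 and 7.25, lay above those of Sox9-GFP+ cells at e15.5 (0.23 ± 0.13, adjusted p = 0.157). Unc5c, a repellent netrin receptor, fell late, by 0.99 from e15.5 to p23 (adjusted p = 0.000913), and by 0.59 (adjusted p = 0.0652) with the p23 array of least Ptprc alone. Unc5b, like dim genes as a whole, fell to e15.5 and rose again by p23 (-0.52 ± 0.10 and 0.47 ± 0.10) and was 0.49 ± 0.10 higher in Ngn3-GFP+ cells. With quantile normalization none of these 3 changes of Unc5b was called (adjusted p = 0.0814, 0.088 and 0.129). Of the ligands, Ntn4 rose by 0.66 ± 0.15 to e15.5 (adjusted p = 0.00752), or 0.47 without the Hbb-y arrays (adjusted p = 0.156), and Ntn1 was called once, lower in Sox9-GFP+ than in GFP- cells at p23 (-0.60 ± 0.13, adjusted p = 0.00239), and by about as much with the Sox9-GFP+ array of least Ptprc alone (-0.52, adjusted p = 0.07).

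The ephrins, ligands bound to the membrane by a lipid anchor (A) or a transmembrane stretch (B), had 7 tested members. Between the p23 sorts 5 of them were higher in Sox9-GFP+ cells, each by at least 2-fold, and 0 lower. Of all genes 36% were called there, 21.5% higher. The median difference of the 7 was 1.47, and that of all genes 0.07. Efna5 read 9.80, 9.51 and 9.45 at e10.5, 8.66, 8.70 and 8.70 at e15.5, 9.89, 10.29 and 10.13 at p23 and 6.94, 7.19 and 6.71 in GFP- cells. The p23 difference was 3.16 ± 0.67 (adjusted p = 0.00168), and about as large with the Sox9-GFP+ array of least Ptprc alone (2.94, adjusted p = 0.0536). In Ngn3-GFP+ cells replicate 2 read 4.49 where the other 2 read 7.93 and 8.36, and the difference from Sox9-GFP+ cells was -1.76 ± 0.67 (adjusted p = 0.0475), and -0.54 (adjusted p = 0.0329) without that array. This call was kept in 8 of 18 alternatives and was lost on leaving out any single Sox9-GFP+ array of e15.5. Efna4 had a like case in the GFP- cells, which read 5.49, 5.27 and 8.67 against 9.23, 8.99 and 8.74 in Sox9-GFP+ cells (2.51 ± 0.60, adjusted p = 0.00417), so that 1 array nearly reached the other group.

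Efna1, which binds Epha2, rose by 0.95 ± 0.16 from e15.5 to p23 (adjusted p = 0.000343). It read 7.67, 7.83 and 7.48 at e10.5, 7.88, 8.21 and 8.38 at e15.5 and 8.90, 8.96 and 9.45 at p23. GFP- cells read 7.73, 7.58 and 7.57, below every Sox9-GFP+ array of p23 (difference 1.47 ± 0.16, adjusted p = 4.88e-06). Efnb2, an arterial and epithelial ephrin, dipped at e15.5. It read 10.72, 10.40 and 10.01 at e10.5, 8.91, 9.15 and 9.09 at e15.5 and 10.22, 10.27 and 10.29 at p23. The change of -1.33 ± 0.25 (adjusted p = 0.00231) was followed by one of 1.21 ± 0.25 (adjusted p = 0.00131), and without the Hbb-y arrays the first was -0.89 (adjusted p = 0.117). Efnb2 and Efnb1 were 1.65 ± 0.25 and 1.16 ± 0.17 higher in Sox9-GFP+ than in GFP- cells. Efna2 and Efnb3 went down from e10.5 to p23 (-1.10 ± 0.19 and -0.57 ± 0.15) and were not called between the sorts of either age.

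The Eph receptors, 10 tested, were called 8 times between the p23 sorts, 7 higher in Sox9-GFP+ cells and 1 lower. That is 80%, where 36% of all genes were called, 21.5% higher and 14.5% lower. Epha2, an epithelial Eph receptor, read 7.96, 7.88 and 7.78 at e10.5, 7.49, 7.67 and 7.88 at e15.5 and 9.04, 9.33 and 9.29 at p23. Only the last group stood apart, with a rise of 1.54 ± 0.14 from e15.5 (adjusted p = 1.71e-06) and a difference of 1.76 ± 0.14 from the GFP- cells (adjusted p = 2.37e-07), which read 7.63, 7.51 and 7.23. Epha1 also read highest in the Sox9-GFP+ cells of p23, at 8.42, 8.38 and 8.35, then 8.44, 8.52 and 8.74, then 9.33, 9.10 and 9.20, with 7.19, 7.32 and 7.12 in GFP- cells. Its rise from e15.5 was 0.64 ± 0.11 (adjusted p = 0.000343) and its difference from GFP- cells 2.00 ± 0.11 (adjusted p = 3.81e-09), and in Ngn3-GFP+ cells it was lower by 0.56 (log2 change -0.56 ± 0.11, adjusted p = 0.00316).

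Epha3 and Epha4 changed in the embryo. Epha4, a receptor for both ephrin classes, read 8.96, 8.62 and 8.51 at e10.5 and 7.13, 7.21 and 7.26 at e15.5, a 2.83-fold fall (-1.50 ± 0.18, adjusted p = 4.72e-05), and 7.27, 7.70 and 7.22 at p23. Epha3, an ephrin-A receptor, peaked at e15.5 with 7.15, 7.50 and 7.75, against 6.18, 6.08 and 6.13 before and 6.19, 6.32 and 6.16 after. The rise was 1.34 ± 0.26 (adjusted p = 0.00267) and the fall 1.25 (log2 change -1.25 ± 0.26, adjusted p = 0.0013). The Ngn3-GFP+ arrays read 6.69, 6.13 and 7.53 and overlapped the Sox9-GFP+ arrays, although the change of -0.68 ± 0.26 was called (adjusted p = 0.0458). It was -0.36 (adjusted p = 0.205) without Ngn3-GFP+ replicate 2 and -1.05 (adjusted p = 0.00229) without replicate 3. The call was also lost without Ngn3-GFP+ replicate 1 (-0.64, adjusted p = 0.102), Sox9-GFP+ replicate 2 (-0.67, adjusted p = 0.102) or Sox9-GFP+ replicate 3 (-0.54, adjusted p = 0.166).

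Epha7 and Ephb4 were lower outside the Sox9-GFP+ cells. Epha7 read 9.79, 9.61 and 9.90 in Sox9-GFP+ and 9.35, 8.50 and 8.79 in Ngn3-GFP+ cells at e15.5 (-0.88 ± 0.25, adjusted p = 0.0158), and 9.28, 8.82 and 9.76 against 7.88, 7.39 and 7.03 at p23 (1.85 ± 0.25, adjusted p = 4.3e-05). Ephb4, the receptor of Efnb2 on veins, read 9.52, 9.30 and 9.35 in Sox9-GFP+ and 8.75, 7.70 and 8.82 in Ngn3-GFP+ cells (-0.97 ± 0.22, adjusted p = 0.00609), with -0.60 when Ngn3-GFP+ replicate 2 was left out. At p23 Ephb4 was 1.68 ± 0.22 above the GFP- cells (adjusted p = 2.98e-05). Ephb3, known from the crypts of the gut, fell by 0.93 from e15.5 to p23 (adjusted p = 0.00169). Ephb6, a dim gene which lacks kinase activity, fell and rose again (-0.62 ± 0.11 and 0.59 ± 0.11). Dim genes as a whole moved the same way, with medians of -0.32 and 0.37. With quantile normalization the fall of Ephb6 was -0.39 (adjusted p = 0.029). The dim receptors Ephb1 and Epha5 changed by 0.48 or less wherever they were called.

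The difference between the 2 sort comparisons was tested as an interaction, as Ngn3-GFP+ minus Sox9-GFP+ at e15.5 less GFP- minus Sox9-GFP+ at p23, which share no arrays. It was called for 34 members, 26 positive and 8 negative, where 45.3% of all genes were called, 27.1% positive and 18.3% negative. After median centring the split was 21 and 11, and after quantile normalization 24 and 10. Sema5a (3.15 ± 0.15, adjusted p = 6.05e-09), Sema6a (2.94 ± 0.21) and Plxnb1 (2.73 ± 0.20) led the positive side: each was lower in GFP- than in Sox9-GFP+ cells and not called between the e15.5 sorts. Nrp1 led the negative side (-2.69 ± 0.31, adjusted p = 1.32e-05), being lower in Ngn3-GFP+ cells but higher in GFP- cells than in the matching Sox9-GFP+ cells. Robo1 was the reverse case, higher in Ngn3-GFP+ and lower in GFP- cells (1.73 ± 0.26, adjusted p = 0.000168). Leaving out single arrays ended the calls of Plxnd1, Efna4, Epha3 and Epha7, with 1 to 3 lost without each array that ended any, at adjusted p from 0.0502 to 0.0999. Over all 24 alternatives Epha7 kept its call in 11.

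The other genes of these pathways, chiefly co-receptors and the cytoplasmic proteins that carry the signal to the cytoskeleton, numbered 86 tested. From e10.5 to e15.5 26 were called, 6 higher and 20 lower, and from e15.5 to p23 52, 31 higher and 21 lower. These are 30.2% and 60.5% of the list, near the 28.2% and 57.5% of all genes. Srgap1, a Slit-Robo GTPase-activating protein, fell at both steps (-1.08 ± 0.17 and -1.49 ± 0.17), as did Dpysl5, a CRMP of semaphorin signalling (-1.37 ± 0.28 and -1.84 ± 0.28). The kinase Fyn and the Rac exchange factor Tiam1 fell late (-2.02 ± 0.21 and -1.86 ± 0.13), and the plexin partner Rnd1 rose late (3.41 ± 0.41, adjusted p = 1.92e-05), with Rras (1.92 ± 0.18), Flrt3 (1.78 ± 0.33) and Rnd3 (1.71 ± 0.26). For Rnd1 the p23 Sox9-GFP+ arrays spread widely, at 11.17, 8.69 and 9.86, against 6.59, 6.49 and 6.41 at e15.5. The GFP- arrays of p23 read 7.99, 8.66 and 7.89. Ngef, the exchange factor ephexin of Eph signalling, rose early (1.17 ± 0.14, adjusted p = 5.04e-05), and Flrt3, an Unc5 and Robo partner, fell before its late rise (-1.40 ± 0.33). Over the whole span 44 were called, 19 higher and 25 lower, or 51.2% against 41% of all genes.

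Between the e15.5 sorts 39 of these genes were called, 22 higher and 17 lower in Ngn3-GFP+ cells, or 45.3% against 41.7% of all genes. Pak3, a Rac effector kinase, was higher (0.87 ± 0.18, adjusted p = 0.00365), and the Rac regulators Chn2, Vav3 and Tiam1 were lower (-1.46 ± 0.31, -1.17 ± 0.15 and -1.12 ± 0.13). At p23 45 were called, 37 higher and 8 lower in Sox9-GFP+ cells, or 52.3% against 36% of all genes. Pak3 (3.24 ± 0.18, adjusted p = 3.52e-09), Flrt3 (2.96 ± 0.33), the exchange factor Kalrn (2.86 ± 0.15) and Dpysl4 (2.85 ± 0.20) were higher, and Fyn (-2.42 ± 0.21, adjusted p = 4.49e-07), Vav3 (-1.65 ± 0.15), Chn2 (-1.30 ± 0.31) and Sema7a (-1.27 ± 0.33) were lower. Fyn, Vav3 and Sema7a are also genes of immune cells, and the part of the leukocyte signal of the GFP- cells in their difference was not tested.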

How the data were processed

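RNA of 15 sorted samples was amplified and hybridised to Affymetrix mouse gene arrays, per the labels' protocols. The authors deposited linear intensity values per probe set, for which the submitters' processing notes name PLIER and Affymetrix Expression Console 1.1. Whether arrays were normalized to each other is not stated there, and their medians ranged from 165.5 to 211.7. Of 35557 probe sets, 21789 named 1 gene in the platform annotation; a gene was read from its brightest one on average, and 999 genes had several.

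Intensities above 97.8, the 30th percentile, in at least 3 arrays were required. Values were taken as log2(intensity + 16) and fitted with limma 3.58.1 in R 4.3.3, with 1 mean per group over all 15 arrays; Benjamini-Hochberg adjustment ran over all 16883 genes of each contrast. The script was tested on simulated data. Groups did not overlap when all values of 1 lay above all of the other. The labels do not say whether replicate numbers pair the arrays, and the main fit did not pair them.

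The members and lists were chosen with earlier results of these data known. Named were up to 25 called members per contrast by size, with every array's value for the 10 largest changes, and up to 4 called genes a direction of the pathway list. Alternatives were other offsets, scalings, filters, probe set rules and fits, and each array left out; fits without arrays of high Hbb-y or Ptprc were added after seeing the data. Figures were drawn with matplotlib 3.10.9 in Python 3.11.15. Promoter windows came from RefSeq, GRCm38.p6.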

Additional observations from a re-analysis of the deposited data

Results flagged for a closer look

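The members below were singled out because their difference between Ngn3-GFP+ and Sox9-GFP+ cells at e15.5 and their difference between GFP- and Sox9-GFP+ cells at p23 were not alike, by a test of the difference itself (interaction in the limma fit, Benjamini-Hochberg adjusted p under 0.05). Values are differences of log2 differences, and a positive value means that the gene stood higher against Sox9-GFP+ cells in the Ngn3-GFP+ than in the GFP- cells. The GFP- cells carried leukocyte and endothelial markers, whose part was not tested.

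Among the semaphorins the values were 3.15 for Sema5a, 2.94 for Sema6a, 2.04 for Sema3d, 1.42 for Sema3e, 1.39 for Sema3f, 1.35 for Sema3c, 1.20 for Sema4c, 0.83 for Sema3b, 0.58 for Sema5b and -1.03 for Sema4d. Sema4d was not called with the mean of both its probe sets (-0.42, adjusted p = 0.127), and Sema5b was not called after either other scaling of the arrays.

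Among plexins and neuropilins they were 2.73 for Plxnb1, 1.89 for Plxnb2, 1.20 for Plxna3, 0.54 for Plxnb3, -0.89 for Plxnd1, -1.72 for Nrp2, -1.78 for Plxna2, -1.79 for Plxnc1 and -2.69 for Nrp1. Plxnb3 was not called after either other scaling.

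The Slit and Robo values were 2.00 for Robo2, 1.73 for Robo1, 1.06 for Slit1 and -1.19 for Slit3, and the netrin receptors gave 1.83 for Neo1 and 0.83 for Unc5b. Ephrins gave 2.51 for Efna4, 1.28 for Efnb1, 1.14 for Efnb2 and 1.12 for Efna1. Eph receptors gave 1.44 for Epha1, 1.40 for Epha2, 0.97 for Epha7, 0.86 for Ephb6 and -1.09 for Epha3. Efna4, Efnb2 and Epha7 were not called after median centring, at adjusted p of 0.0558, 0.0821 and 0.163. Of 24 alternatives, the call was lost under 8 for Efna4, 2 for Efnb2 and 13 for Epha7. Plxnd1 lost its call under 4 of 24 and Epha3 under 4 of 23.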

How the results depend on the processing

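Of 178 called member changes, interaction included, 108 were called under every alternative in which the gene was tested. The other 70 were lost under at least 1, and none changed sign. A gene that the filter at the median removed was not counted as lost there. From e10.5 to e15.5 all genes called, 4754, came to 2725 with quantile normalization, 7149 with the compared groups fitted alone and 2673 without the Hbb-y arrays, and 1840 to 5952 without single arrays. Members called there, 22, came to 14 with the filter at the median, 13 without the Hbb-y arrays and 12 to 18 without single arrays. From e15.5 to p23 the members, 31, came to 49 with array weights and 26 to 31 without single arrays (all genes 7512 to 9911). From e10.5 to p23 they were 20 (all genes 3559) without the Hbb-y arrays and 29 to 33 without single arrays (all genes 5786 to 6741). Between the e15.5 sorts they were 12 with the filter at the median and 13 to 23 without single arrays, and all genes 4072 with quantile normalization and 3757 to 6839 without single arrays. Between the p23 sorts single arrays left 33 to 35 members (all genes 5055 to 5741), and in the interaction 31 to 38. Causes were not tested, except that a filter at the median tests fewer genes.

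With the replicate number as a block the members called were 18, 30, 33, 18 and 36 in these comparisons and 34 in the interaction. The labels do not say that numbers pair arrays, and deviations of same-numbered arrays correlated at -0.18 to 0.04 between the e15.5 sorts and -0.12 to 0.11 between the p23 sorts. Not every array correlated best with its own number. Genes near the lower end of the scale (Robo1 in GFP- cells, Efna5 and Efna4 in single arrays) are limited by dim signal.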
